A study of Rattus norvegicus with 2 samples.

Results

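NMDA receptors are glutamate-gated cation channels of the postsynaptic membrane. Each contains the obligatory subunit encoded by Grin1, which binds the co-agonist glycine or D-serine, together with glutamate-binding subunits encoded by Grin2a to Grin2d or glycine-binding subunits of the Grin3 group. The channel opens when glutamate binds and depolarisation has relieved its block by magnesium, and the calcium that enters starts the signalling behind long-term potentiation and depression in the hippocampus. In the adult hippocampus Grin2a and Grin2b are known as the main partners of Grin1 in pyramidal neurons. Whether subunit mRNAs also lie close to synapses bears on local translation of the receptor, the kind of question that the comparison of synaptosomal with whole-tissue RNA was set up to address.

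The members were taken as every probe set of the array whose platform annotation names exactly 1 gene, Grin1, Grin2a, Grin2b, Grin2c, Grin2d or Grin3a. This gave 14 probe sets for 6 genes, among 7006 probe sets with 1 gene symbol for 4736 genes. They derive from 12 source sequences, because a pair of designs for Grin1 and a pair for Grin3a each share a source. One RNA came from synaptosomes, the pinched-off nerve endings with attached postsynaptic membranes that are recovered from homogenised tissue, and the RNA set against it came from the total hippocampus. Both samples were from Sprague Dawley rats at postnatal day 70, with no treatment given in the labels, and each was amplified with the SMART cDNA kit and measured on 1 expression array. The number of animals pooled in a sample, their sex, and whether both samples came from the same animals are not stated in the labels. With 1 array per group there was no replicate error, so no test between the groups was made, and the number of arrays limits the precision of every value below.

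Signals are the deposited linear intensities, which can be negative. A value under 846, the median of all non-control values on both arrays, was set to that floor before log2 was taken. Log2 ratios are synaptosome minus total hippocampus, centred by subtracting the median of -0.17 over the 4370 probe sets that passed a filter on mean level. The centring makes folds of higher probe sets 1.13 times the quotient of the floored signals. Where 1 array sits at the floor, the ratio is a bound, written "at least", which takes the signals at face value. Negative values give a view of the noise: the 95th percentile of their size was 2912.6 for synaptosomes and 5280.25 for the hippocampus. Values at or below 0 made up 25.2% of the non-control probe sets for synaptosomes and 31.4% for the hippocampus. Different probe sets bind their targets with different strength, so no order of abundance among the subunits is given.

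NMDA receptor mRNAs gave modest signals on both arrays, and most probe sets read higher in synaptosomes. Over the 14 probe sets the signal ran between 139 and 7975 with a median of 1644.5 in synaptosomes, and between -967 and 8052 with a median of 730 in the total hippocampus. The synaptosome signal was the larger in 10 probe sets and the smaller in 4, while 53.4% of all non-control probe sets had the larger signal in synaptosomes. On the synaptosome array 5 of the 14 exceeded the 95th percentile of negative sizes, and on the hippocampus array 1 did. Over all non-control probe sets these shares were 23.9% and 14.7%. The cut itself was lower on the synaptosome array, 2912.6 against 5280.25 on the hippocampus array. AF001423_at for Grin2a is the only member measured clearly above this spread on both arrays.

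**Figure D1:**
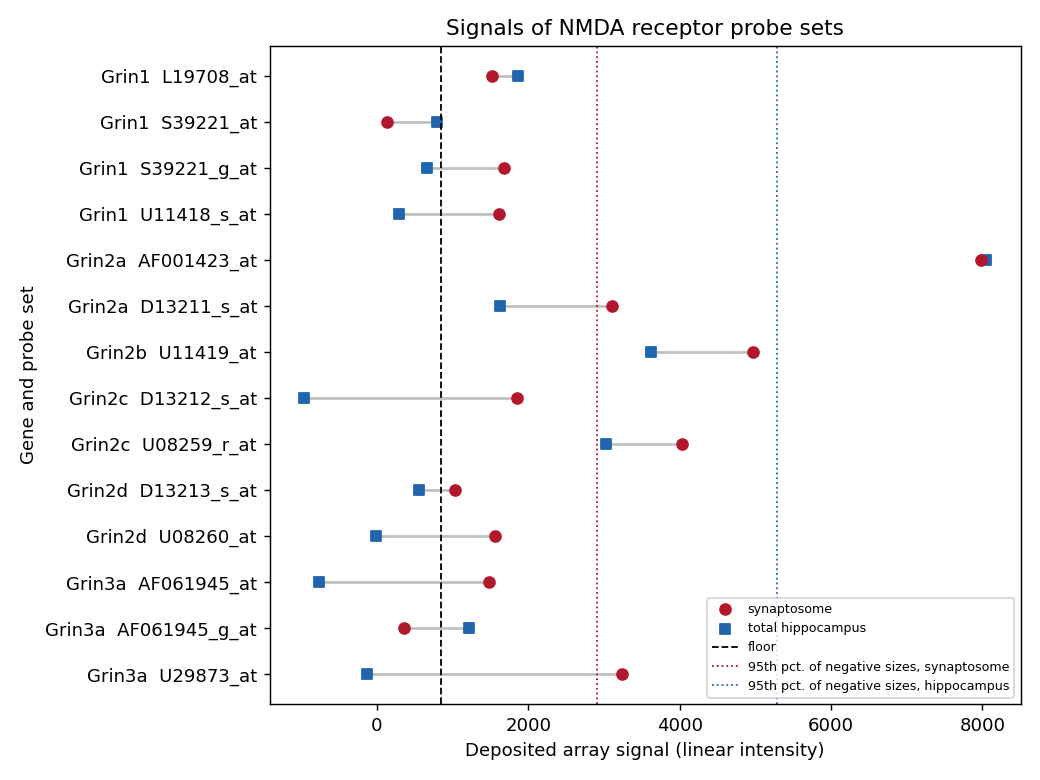
Deposited linear signal (x axis) of each of the 14 NMDA receptor probe sets (y axis) on the synaptosome array (circles) and the total hippocampus array (squares). The dashed line is the floor of 846 and the dotted lines are the 95th percentiles of the size of negative values, 2912.6 for synaptosomes and 5280.25 for the hippocampus; only AF001423_at of Grin2a lies beyond both dotted lines with both of its points.

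Both signals exceeded the floor in 5 of the 14 probe sets, only the synaptosome signal in 7, only the hippocampus signal in 1 and neither in 1. Over all non-control probe sets these shares were 39.7%, 9.49%, 11.2% and 39.7%. The filter was passed by 11 members, covering all 6 genes. Among them 6 were at least 2-fold higher in synaptosomes, 5 had a ratio or bound short of 2-fold and 0 were lower by 2-fold or more. Of the 4370 filtered probe sets on the whole array, 19.1% were higher by this measure and 14.9% were lower. The count of 6 depends on the floor, the centring, the filter and the probe set designs. It was 2 without centring, with the floor at percentile 60 or without suffixed probe sets (_s_at, _g_at and _r_at). It was 0 with the floor or the filter at percentile 75 or with a floor per array. In that order, 14.8%, 12.7%, 19.6%, 9.65%, 13.5% and 9.70% of all filtered probe sets were at least 2-fold higher. U29873_at was in each count of 2. The other member was D13212_s_at without centring, D13211_s_at with the floor at percentile 60 and U08260_at without suffixed probe sets.

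A probe set at the floor in the hippocampus could pass the filter only with a synaptosome signal of at least 1373.5, and from 1504 upward it counted as 2-fold higher, so most probe sets of this kind had to be called. With the synaptosome signal at the floor, a call of 2-fold lower took a hippocampus signal of at least 1904, so the centring made the calls unequal between directions. Over the whole array 87.8% of the 427 filtered probe sets above the floor in synaptosomes only were called higher, and 5 of 6 such members were. Among the 3392 filtered probe sets with both signals over the floor, 13.5% were called higher, and 1 of 5 members was. Of the 6 members called higher, 2 had a synaptosome signal above the 95th percentile of negative sizes on that array, D13211_s_at of Grin2a and U29873_at of Grin3a.

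**Figure D2:**
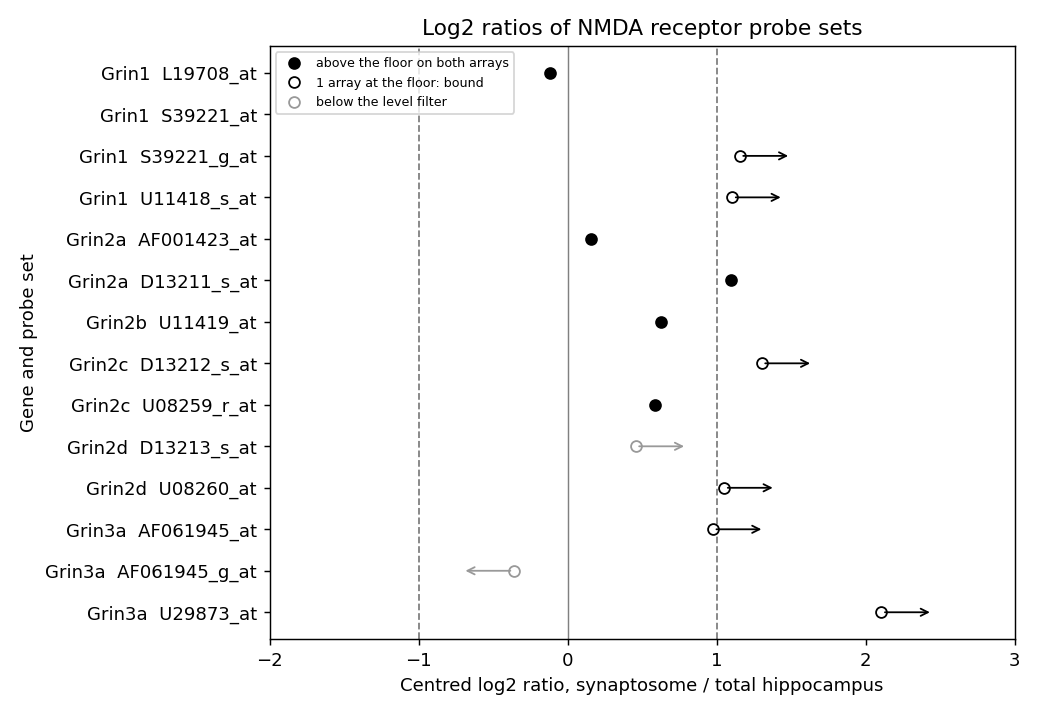
Centred log2 ratio of synaptosome over total hippocampus (x axis) for each NMDA receptor probe set (y axis), with dashed lines at 2-fold. Filled points are above the floor on both arrays, open points with arrows are bounds, and grey points did not pass the filter; 5 of the 6 probe sets beyond 2-fold are bounds, and S39221_at has no ratio.

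Grin1, which encodes the subunit present in every NMDA receptor, was represented by 4 probe sets that did not give 1 direction. L19708_at read 1525 in synaptosomes against 1860 in the whole tissue, which gives a log2 ratio of -0.12. Of the Grin1 probe sets it alone had both signals over the floor, and its difference was smaller than the spread of 0.90 on the log2 scale between probe sets of 1 gene, given with the summary by gene. U11418_s_at read 1616 in synaptosomes and 290 in the hippocampus, at least 2.15-fold higher. The other designs share the source S39221. S39221_g_at read 1673 in synaptosomes and 661 in the hippocampus, at least 2.23-fold higher, whereas S39221_at read 139 in synaptosomes and 799 in the hippocampus, under the floor on both arrays. Designs on the same cDNA thus had the larger reading on opposite arrays, and all 8 Grin1 readings lay under the 95th percentile of negative sizes of their array. Without centring the fold bounds of U11418_s_at and S39221_g_at were 1.91 and 1.98, short of 2-fold.

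Grin2a encodes the glutamate-binding subunit with fast deactivation that accumulates in the forebrain after birth. Its bright probe set AF001423_at read 7975 in synaptosomes and 8052 in the hippocampus, a log2 ratio of 0.16 after centring and -0.01 without it. These readings stood at percentile 89.7 of the synaptosome array and percentile 90.0 of the hippocampus array, so the brightest member of the family held nearly the same rank on both arrays. D13211_s_at read 3105 in synaptosomes and 1631 in the hippocampus, 2.14-fold higher with centring and 1.90-fold without. It is the only member called higher with both signals above the floor. Its log2 ratio was 1.10, against 0.16 for AF001423_at. The within-gene standard deviation of 0.90, given with the summary by gene, is for 1 probe set around its gene mean, not for a difference between 2.

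Grin2b encodes the subunit with slow deactivation that prevails early in development and whose long cytoplasmic tail binds Ca2+/calmodulin-dependent kinase II. Its single probe set, U11419_at, read 4965 in synaptosomes and 3627 in the hippocampus, so it was 1.54-fold higher, or 0.62 on the log2 scale. The synaptosome signal lay above the 95th percentile of negative sizes there and the hippocampus signal below it. Over all filtered probe sets 29.2% had a ratio at least this high. The ratio lay between 0.26 and 0.64 over the 10 alternatives in which it was computed, where 0.26 is a lower bound from the floor per array.

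Grin2c and Grin2d encode subunits with weaker magnesium block, known mainly from cerebellar granule cells for Grin2c and from interneurons and the diencephalon for Grin2d. For Grin2c, U08259_r_at read 4030 in synaptosomes and 3021 in the hippocampus, 1.50-fold higher or 0.59 on the log2 scale. D13212_s_at read 1853 in synaptosomes and -967 in the hippocampus, at least 2.46-fold higher with centring and at least 2.19-fold without. Both probe sets read higher in synaptosomes, and only the one with a negative hippocampus reading passed 2-fold. For Grin2d, U08260_at read 1557 in synaptosomes and -13 in the hippocampus, at least 2.07-fold higher. D13213_s_at read 1031 in synaptosomes and 560 in the hippocampus and did not pass the filter, with a bound of 0.46 on the log2 scale. All 4 readings of Grin2d lay within the spread of negative values, and without centring the bound of U08260_at was 1.84-fold.

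Grin3a encodes a glycine-binding subunit that lowers calcium permeability and magnesium block when built into the receptor. U29873_at read 3234 in synaptosomes and -128 in the hippocampus, at least 4.30-fold higher with centring and at least 3.82-fold without, the highest ratio in the family. Over all filtered probe sets 3.46% had a ratio or bound at least this high. AF061945_at read 1477 in synaptosomes and -766 in the hippocampus, a bound of 0.97, just short of 2-fold. AF061945_g_at, designed on the same source sequence, read 351 in synaptosomes and 1222 in the hippocampus, a bound of -0.36, and did not pass the filter. The synaptosome reading of U29873_at was thus the only one of 6 Grin3a readings above the 95th percentile of negative sizes of its array, and the designs on AF061945 pointed in opposite directions. With the floor at percentile 75, a signal of 2798.5, the bound of U29873_at was at least 0.29.

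Probe sets of 1 gene are the only repeated measurement in these data, and they differed widely. Within a gene, log2 ratios had a pooled standard deviation of 0.69 over the 4 NMDA receptor genes with several filtered probe sets, against 0.90 over all 658 such genes on the array. This spread leaves out animals, preparations and amplifications. The single filtered probe set of Grin2d was at least 2-fold higher and that of Grin2b was not. Grin1, Grin2a and Grin2c each had filtered probe sets with ratios or bounds on both sides of 2-fold. For Grin3a the lower of the filtered values, 0.97 for AF061945_at, is itself a lower bound, so its side of 2-fold is unknown. Taking the probe set with the highest mean level for each gene, 2 of 6 genes were at least 2-fold higher, Grin2d and Grin3a, where 19.1% of all 2735 genes were. Both were over the floor in synaptosomes only, the kind of probe set that was called in 87.8% of cases, and of the 4 genes with both signals over the floor 0 were called. The gene ratios ran upward from -0.12 for Grin1 through 0.16 for Grin2a, 0.59 for Grin2c, 0.62 for Grin2b and at least 1.05 for Grin2d to at least 2.10 for Grin3a. Neighbours among Grin1, Grin2a, Grin2c and Grin2b differed by less than the within-gene spread of 0.90, and the size of the step to Grin2d and Grin3a is unknown because both are bounds.

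The median log2 ratio of the 6 NMDA receptor genes was 0.60, with bounds taken at their value, and that of all 2735 filtered genes was 0.0014. With 1 probe set per gene, medians of the same order were found for other lists, 0.59 for neuronal markers and 0.50 for kinases and phosphatases. Genes of AMPA receptors, which carry fast glutamate currents, and of kainate and delta receptors had a median of -0.0039 over 6 filtered genes out of 10 on the array, with 0 past 2-fold in either direction. Of these 6, 5 had both signals over the floor and 1 was a bound over the floor in the hippocampus only. The NMDA receptor genes held 2 bounds over the floor in synaptosomes only, Grin2d and Grin3a. The 4 NMDA receptor genes with both signals over the floor had ratios of -0.12, 0.16, 0.59 and 0.62. Gria1 and Gria2, the main AMPA receptor subunits of pyramidal neurons, had log2 ratios of 0.10 and -0.0046 with the probe sets of highest mean level (both genes were chosen after their values were seen). Their other probe sets gave higher ratios, 0.47 and a bound of 1.48 for Gria1 and 0.90 for Gria2. Among filtered probe sets with both signals over the floor, 1 of 5 for the NMDA receptor and 0 of 8 for the other families were at least 2-fold higher. Among those over the floor in synaptosomes only, which mostly had to be called, 5 of 6 for the NMDA receptor and 1 of 1 for the other families were. Of all 14 NMDA receptor probe sets 5 lay over the floor on both arrays and 7 in synaptosomes only, against 8 and 3 of 17 in the AMPA, kainate and delta list. The difference between the families was not tested.

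**Figure D3:**
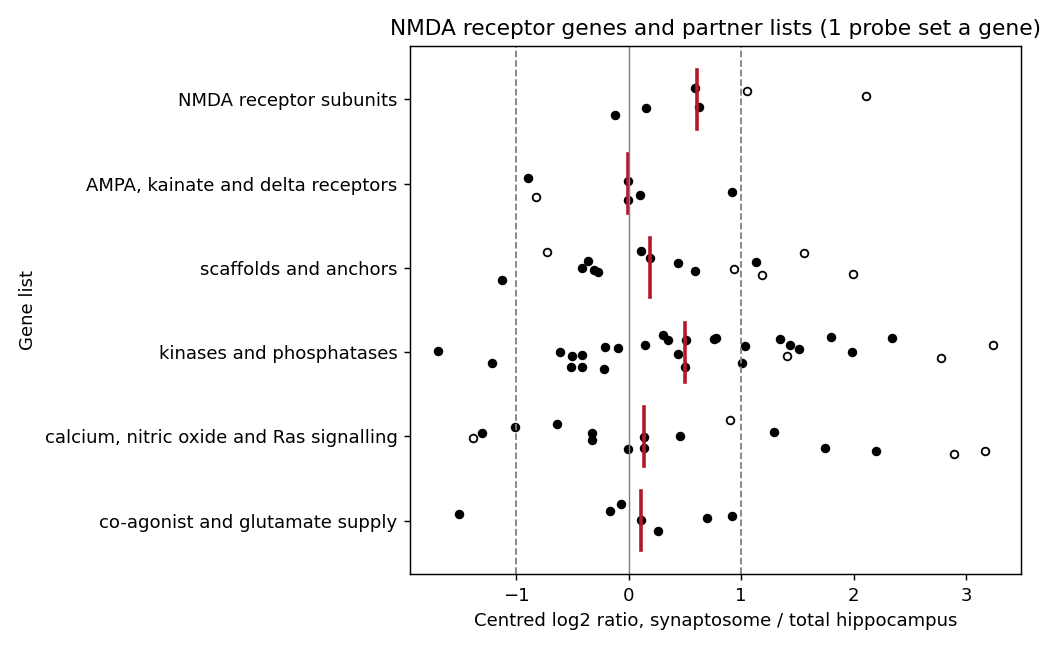
Centred log2 ratio of synaptosome over total hippocampus (x axis) for 1 probe set per gene, by gene list (y axis), with dashed lines at 2-fold and red bars at list medians. Filled points are above the floor on both arrays and open points are bounds. With bounds taken at their value, the median of the 6 NMDA receptor genes is 0.60. That of the AMPA, kainate and delta receptor genes is -0.0039. Of the NMDA receptor genes 2 are bounds over the floor in synaptosomes only. Of the AMPA, kainate and delta receptor genes 1 is a bound over the floor in the hippocampus only.

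Proteins that anchor the receptor and carry its signal were described by 4 lists with 85 genes on the array, of which 67 passed the filter. Past 2-fold, 20 of these were higher and 7 lower in synaptosomes, with 40 between, and the median log2 ratio was 0.30. The 20 include bounds over the floor in synaptosomes only, named with each list below, and the median takes bounds at their value. Over all 2735 genes 19.1% were higher and 14.3% lower by 2-fold or more. Scaffolds and anchors had 4 higher, 1 lower and 10 between of 15 genes, with a median of 0.19. Dlg4, which encodes the postsynaptic scaffold PSD-95 that binds the tails of the Grin2 subunits, read 8562 in synaptosomes and 7118 in the hippocampus, a log2 ratio of 0.44 (chosen after its values were seen). Grina, named for an NMDA receptor-associated protein but encoding a membrane protein of the Golgi and endoplasmic reticulum, was among the brightest, with 29699 in synaptosomes and 15215 in the hippocampus, 2.20-fold higher. Its other probe set gave a log2 ratio of 0.98. Shank1, a scaffold deeper in the postsynaptic density, was at least 2.95-fold higher and Dlgap1, which links PSD-95 to Shank proteins, at least 2.28-fold. The probe sets of Dlgap4 disagreed, the brighter one at least 3.99-fold higher and the other with a bound of -1.28 on the log2 scale. Its relative Dlgap2 was 2.18-fold lower.

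Kinases and phosphatases that act on or below the receptor had 11 higher, 2 lower and 16 between of 29 filtered genes, with a median of 0.50. Over all 2735 genes 19.1% were higher and 14.3% lower. Among the 11, Ppp1cc, Ppp1ca and Src were over the floor in synaptosomes only, the kind of probe set called in 87.8% of cases. The catalytic subunits of protein phosphatase 1, which takes part in long-term depression, had the highest ratios of the list. Ppp1cb was 5.06-fold higher with both signals above the floor, while the bounds were 9.41-fold for Ppp1cc and 6.84-fold for Ppp1ca. Ptk2b, a calcium-activated tyrosine kinase upstream of Src, read 10388 in synaptosomes and 2957 in the hippocampus, 3.95-fold higher. Camkk2, a kinase that activates other calmodulin-dependent kinases, was 3.47-fold and Ptpra, a receptor tyrosine phosphatase, 2.85-fold higher, although the second probe set of Ptpra gave 0.58 on the log2 scale. Csnk2b, the regulatory subunit of casein kinase 2, was 3.24-fold lower and Camk2g, the gamma isoform of the calmodulin-dependent kinase II, 2.31-fold lower. Camk2a, whose mRNA is known to be carried into dendrites, had log2 ratios of -0.22 and 0.15 with its 2 probe sets. The gene was chosen after its values were seen. J02942_at read 1522 in synaptosomes and 1990 in the hippocampus, and M16960_s_at read 1650 in synaptosomes and 1674 in the hippocampus. All of these readings lay within the spread of negative values, under 2912.6 for synaptosomes and 5280.25 for the hippocampus. They therefore cannot show whether Camk2a mRNA differed between the samples.

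Genes of calcium, nitric oxide and Ras signalling had 5 higher, 3 lower and 8 between of 16, with a median of 0.14. For this list and the next, the shares over all 2735 genes were 19.1% higher and 14.3% lower. Nos1ap, which couples neuronal nitric oxide synthase to its partners, was higher by at least 8.96-fold, and the Ras gene Nras by at least 7.39-fold. Nos1ap read 6735 in synaptosomes and 292 in the hippocampus, and Nras 5558 in synaptosomes and 314 in the hippocampus. Both were over the floor in synaptosomes only, the kind of probe set called in 87.8% of cases. The second Nras probe set was at the floor on both arrays. Rasgrf1, a Ras exchange factor activated by calcium entry through the receptor, read 3908 in synaptosomes and 956 in the hippocampus, 4.60-fold higher. Itpr1, a calcium release channel, had a 3.36-fold higher signal with its brightest probe set, while a second one gave -0.21 on the log2 scale. Rasgrp1, another Ras exchange factor, was 2.44-fold higher. Calm2, one of the calmodulin genes, read 54209 in synaptosomes and 149895 in the hippocampus, 2.46-fold lower. Nrgn, which encodes the calmodulin-binding protein neurogranin, was 2.01-fold lower with 1 design and had a log2 ratio of -0.17 with the other on the same source, and Gucy1a1, a subunit of the nitric oxide receptor, at least 2.60-fold lower. The probe sets of Nos1 were at the floor on both arrays. Among genes of co-agonist and glutamate supply 0 of 7 were at least 2-fold higher and 1 was lower, by 2.85-fold: Slc1a2, the main astrocytic glutamate transporter, with log2 ratios between -1.51 and 1.24 over its 3 filtered probe sets.

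Markers of other cell types and signs of RNA quality also differed between the 2 RNA samples. Of the oligodendrocyte markers 5 of 7 were on the array and passed the filter, with 3 at least 2-fold lower in synaptosomes and 1 higher, and their summed signal was 22946 in synaptosomes and 41456 in the hippocampus. Over all 2735 genes 14.3% were at least 2-fold lower and 19.1% higher. Mbp was 4.70-fold lower and Cnp 2.67-fold higher. Of the neuronal markers 5 of 8 were on the array, all 5 above the floor on both arrays. Their ratios were 0.92 for Nefm, 0.69 for Map2, 0.59 for Nefl and 0.35 for Syt1, while Snap25 was 2.96-fold lower. With 1 probe set per gene, their median of 0.59 was close to that of the NMDA receptor genes, 0.60 with bounds taken at their value. The 5 filtered Map2 probe sets ran from -0.59 to 0.90. Over all 13 filtered neuronal probe sets the median was 0.35, with 0 at least 2-fold higher and 3 lower. For the 11 filtered NMDA receptor probe sets it was 1.05, with bounds taken at their value. That value is itself the bound of U08260_at, and 6 of the 11 were over the floor in synaptosomes only. All 13 neuronal probe sets were over the floor on both arrays, so the medians are not like for like. The 5 members over the floor on both arrays had ratios of -0.12, 0.16, 0.59, 0.62 and 1.10. The summed neuronal signal was 90636 in synaptosomes and 149300 in the hippocampus, and without Snap25 it was 57854 in synaptosomes and 40214 in the hippocampus. The astrocyte sum, over 6 of 7 markers, was 207667 in synaptosomes and 216502 in the hippocampus, and without Aldoc 143342 in synaptosomes and 114814 in the hippocampus. The latter sum holds S100b, with 61538 in synaptosomes and 27401 in the hippocampus, 2.53-fold higher. Of the 6 astrocyte markers S100b alone was at least 2-fold higher and Slc1a2 alone at least 2-fold lower. Their median log2 ratio was 0.035. Microglial markers gave no common direction. Over 6 of 7 markers they summed to 11816 in synaptosomes and 2746 in the hippocampus, but this sum holds negative readings and only 2 markers passed the filter. Of these Aif1 had a log2 ratio of 0.98 and Ptprc a bound of -0.68, and Csf1r and Itgam were at the floor on both arrays. Markers of endothelium and blood summed to 14951 in synaptosomes and 45970 in the hippocampus over 5 of 7, with Vwf at the floor on both. The haemoglobin gene Hbb made most of that gap, with 6811 in synaptosomes and 35126 in the hippocampus; Flt1 was 2.31-fold lower, and Pecam1 and Slc2a1 had log2 ratios of 0.38 and 0.88. The control probe sets at the 3′ and 5′ ends of beta-actin differed 7.79-fold in synaptosomes and 4.96-fold in the hippocampus, and those of GAPDH 1.07-fold in synaptosomes and 1.05-fold in the hippocampus. The part of cell composition and of 3′ bias in the NMDA receptor ratios was not tested. Less material of a cell type and less of the marker RNA in that material cannot be told apart in such samples.

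**Figure D4:**
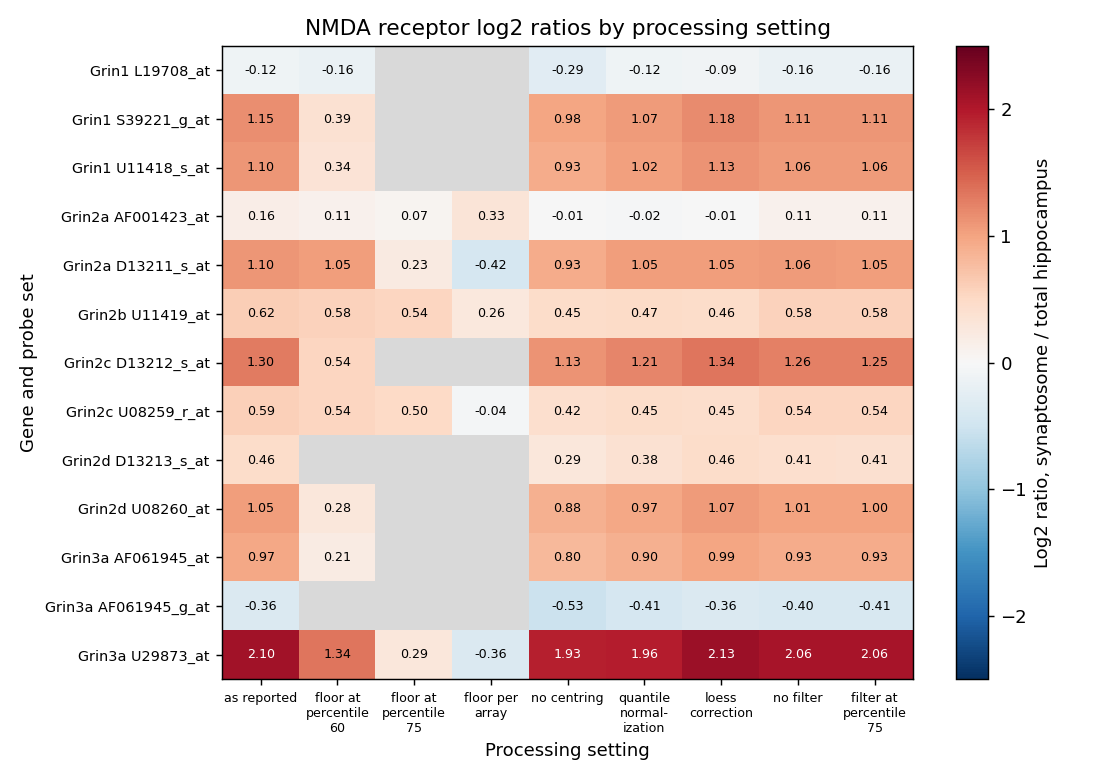
Log2 ratio of synaptosome over total hippocampus (colour and printed value) for each NMDA receptor probe set (y axis) under each processing setting (x axis), with grey where both arrays were at the floor. The widest range is that of U29873_at of Grin3a, with 2.10 as reported, 0.29 with the floor at percentile 75 and -0.36 with a floor per array. Each of these is a lower bound, because the hippocampus reading was at the floor.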

How the data were processed

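RNA of hippocampal synaptosomes and of the total hippocampus was measured on 1 array each. Per the labels' protocols, SMART cDNA primed at the poly(A) tail was transcribed into biotinylated cRNA. The deposited values are linear intensity readings, 8799 per array including 59 controls. The sources used here do not give their scanner software or background correction. The mean after trimming 2% at each end was 2500 on both arrays, so no further scaling was applied. The floor at percentile 50, the median centring, the level filter (mean log2 level of at least 10.07, a signal of 1078) and the 2-fold threshold were then applied as the report states. Gene names came from the platform annotation; of 8740 non-control probe sets 308 have several symbols and 1426 are unnamed here.

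All members were named; from each partner list, genes past 2-fold were named, up to 6 in each direction. With 2 arrays each probe set has 1 ratio, so no gene was named for likeness of pattern. The members and lists were chosen with earlier results of these data known. Alternatives covered the floor, centring, normalization between arrays, filter, probe set designs and summary per gene. Scripts ran under Python 3.11.15 with pandas 2.3.3, NumPy 2.4.6, statsmodels 0.14.6 (loess) and matplotlib 3.10.9, and were tested on simulated data.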

Additional observations from a re-analysis of the deposited data

How the results depend on the processing

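The number of NMDA receptor probe sets at least 2-fold higher was 6 as reported, 5 with quantile normalization, 6 with loess correction or no filter, and 2 with the floor at percentile 60, without centring, or without probe sets of suffixed design. It was 0 with the floor at percentile 75, with a floor on each array at the 95th percentile of its negative sizes, or with the filter at percentile 75, where 5, 5 and 3 members passed. Of all filtered probe sets 9.65%, 9.70% and 13.5% were at least 2-fold higher under these 3 settings. In all 9 alternatives named above 0 members were at least 2-fold lower. With the floor per array, which lies higher on the hippocampus array by construction, D13211_s_at of Grin2a had a bound of at least -0.42. U29873_at, the value used for Grin3a, had a bound of at least -0.36. Both hippocampus readings sat at their floor there, so neither probe set was shown to be lower in synaptosomes. At least 2-fold higher were 539 of 4248 filtered probe sets with the floor at percentile 60 and 258 of 2673 with it at percentile 75. With the floor per array it was 212 of 2186, and with the filter at percentile 75 it was 295 of 2185, against 833 of 4370 as reported. At least 2-fold lower were 239 of 2673 with the floor at percentile 75, 140 of 2186 with the floor per array and 279 of 2185 with the filter at percentile 75. Without suffixed probe sets it was 412 of 2858, against 649 of 4370 as reported. Higher probe sets made up 56.2% of those past 2-fold as reported and 42.1% without centring. Of the partner genes, 9, 6 and 6 were higher with the floor at percentile 75, the floor per array and the filter at percentile 75, and 2, 1 and 2 were lower. Without suffixed probe sets 3 were lower, and with the mean over probe sets 4. Fewer probe sets lie above a raised floor or filter by construction; other causes were not tested. No paired analysis was possible because each group has 1 array. No replicate could be left out for the same reason, and signal over background limits the NMDA receptor values, since AF001423_at alone exceeded the 95th percentile of negative sizes on both arrays.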
